A study of Mus musculus with 24 samples.

Results

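The response of SIM-A9 cells to bacterial lipopolysaccharide (LPS) was read from 6 of the 24 RNA-seq libraries of the series, 3 of cells given LPS and 3 of untreated control cells, taken by their titles. SIM-A9 is a mouse microglial cell line, and microglia are the resident macrophages of the brain. All cells were kept for 2 h without serum in 270 uL of DMEM/F12 in 48-well plates, and RNA was extracted 2 h after 30 uL of a concentrated sample had been added to the treated wells. The labels state no LPS dose and call the controls untreated, with no mention of a vehicle. LPS served as the positive control for inflammation in a study of probes for neurons, and the other 6 groups, also of 3 libraries, received a virus (AAV), a dye (Di-2-ANEPEQ, DiBASC2, Fura-2) or carbon nanotubes (COOH SWCNT, (GT)6 SWCNT). Poly-A RNA was sequenced, and 13116 of 54838 genes passed the filter on low counts and were tested. Nothing in the labels says that the 3 libraries of a group came from separate cultures, so p-values measure the spread between these libraries, which may be technical. Index numbers run in blocks by group, so library order cannot be told apart from treatment.

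LPS is bound by CD14 and passed to the receptor complex of TLR4 and MD-2, which signals through the adaptors MyD88 and TRIF to NF-kB, the MAP kinases and the interferon regulatory factors. The first wave of transcription in macrophages holds cytokines, transcription factors that act on later genes, and inhibitors that limit the signal. Cytokine genes are the best known readout, so the account below turns to the sensors, factors, receptors and enzymes, and to the genes whose transcripts became fewer. Levels are given as CPM, which divides the counts by library sizes adjusted with TMM factors. Values of single libraries follow the order of the replicate numbers. A count of 1 corresponded to 0.0503 CPM in an average control library. Calls were made in edgeR's quasi-likelihood test where the p-value, adjusted by Benjamini-Hochberg over all tested genes, was under 0.05. The ± after a log2 fold change (LPS over control) is its standard error. A fold is the ratio fitted by the same model. In bulk RNA, fewer cells with a transcript and less transcript per cell cannot be told apart.

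Library totals lay between 18176305 and 23155577 counts in control and between 19101562 and 22416164 in LPS. Mitochondrial transcripts took 1.54 to 1.72% of the counts in control and 1.47 to 1.59% in LPS. Of 16 markers of microglia and macrophages, 13 were above 1 CPM in control, and their summed level was 3310 to 3352 CPM in control and 3268 to 3558 CPM in LPS. The microglial genes Sall1 and Siglech had no count in any of the 6 libraries, so the line carried general macrophage markers such as Cd68 and Csf1r but not these 2. Markers of lymphocytes (6 of 6), neurons (5 of 6), neutrophils (4 of 5) and astrocytes (4 of 6) were at or below 3 counts in all 6 libraries. Of the endothelial markers, Flt1 alone was above 1 CPM, at 172 to 182 CPM in control and 177 to 195 CPM in LPS.

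LPS changed 3717 genes (28.3% of those tested), 1809 higher (13.8%) and 1908 lower (14.5%). With upper-quartile in place of TMM scaling, 1455 genes were higher and 2660 lower. With DESeq2 size factors 1960 were higher and 1769 lower, with the DESeq2 test 1889 and 1711, and in a fit of the 6 libraries alone 1777 and 1632. Each fit without 1 library also had more higher than lower calls, such as 1914 and 1666 without LPS replicate 1, so no surplus in either direction held across the fits. The large changes were less even: 369 genes rose at least 2-fold (2.81%) and 183 fell at least 2-fold (1.4%). Among the called genes, 152 rose at least 4-fold and 25 fell at least 4-fold, and 19 rose but none fell by 5 or more on the log2 scale. Genes with at least 2-fold changes were compact in both directions. Among protein-coding genes the median genomic span was 12.8 kb for those that rose and 12.7 kb for those that fell, against 23.5 kb for all tested, and the median exon number was 6 and 5 against 10. Both sets also started from low levels, with a median control level of 9.12 and 4.65 CPM against 35.7 CPM, and the part of this in the difference in length was not tested.

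**Figure D1:**
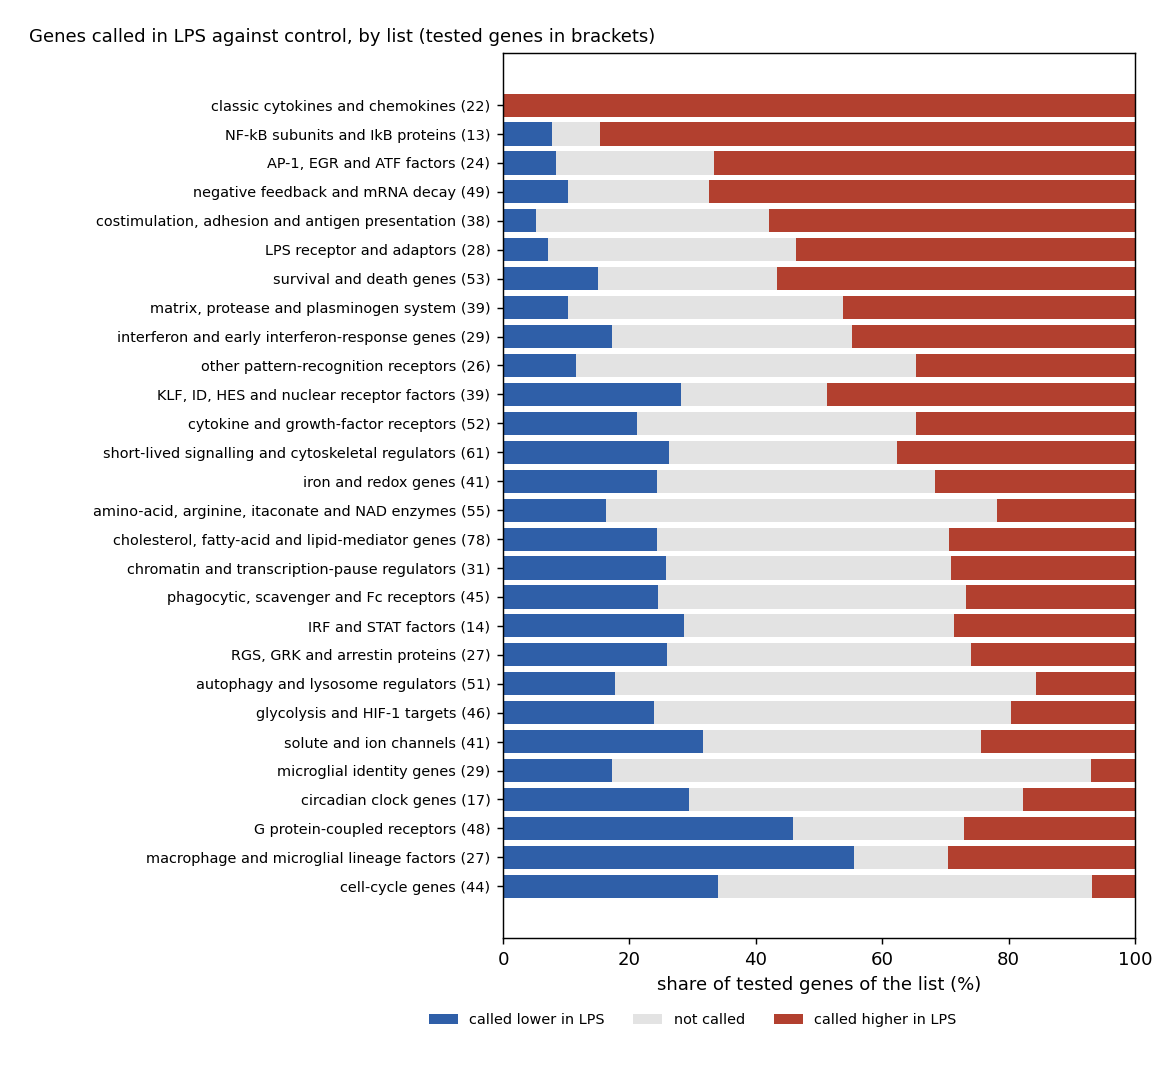
Share of the tested genes of 28 gene lists that were called lower in LPS (blue), not called (grey) or called higher (red), in percent, with the number tested in brackets and lists ordered by the surplus of higher calls. Cytokines, NF-kB proteins, AP-1 factors and feedback inhibitors stand at the top, and cell-cycle genes, lineage factors and G protein-coupled receptors at the bottom. Over all tested genes 13.8% were called higher and 14.5% lower. List members were chosen with earlier results of these data known.

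Of 25 classic cytokine and chemokine genes 22 were tested, and those 22 were at least 2-fold higher, a count to which the low-count filter contributes because it keeps genes that are high in LPS alone. Csf3, which encodes the granulocyte growth factor G-CSF, had at most 1 count in any control library. It stood at 32.6, 37.8 and 36.8 CPM in LPS and 0.0549, 0 and 0.0534 CPM in control, at least 237-fold higher against a floor of 3 counts per control library. Il6 stood at 39.5, 37.5 and 43.1 CPM in LPS and 0.2198, 0.1702 and 0.214 CPM in control (log2 fold change 7.62 ± 0.19, adjusted p = 1.28e-28), and the neutrophil-attracting chemokine Cxcl2 at 1079, 1222 and 1223 CPM in LPS and 15.2, 11.3 and 12.5 CPM in control (log2 fold change 6.51 ± 0.081, adjusted p = 3.68e-38). In these 3 genes every LPS library was far above all control libraries. Il1b (5.59) and Tnf (5.01) rose on the same log2 scale.

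The genes that detect LPS changed in both directions, with the receptor falling while the co-receptor rose. Tlr4, the signalling receptor (ENSMUSG00000039005.13, chromosome 4, 66827584 to 66930284), stood at 42.6, 40.6 and 41.9 CPM in control and 25.97, 21.1 and 21.4 CPM in LPS. All LPS libraries lay well below the lowest control library. The transcript stood at 54.8% of control (log2 fold change -0.87 ± 0.068, adjusted p = 3.06e-13). Cd14, the co-receptor that hands LPS to TLR4 (ENSMUSG00000051439.6, chromosome 18, 36725067 to 36726798), went the other way, with 308, 289 and 288 CPM in control and 825, 835 and 866 CPM in LPS. Its level rose 2.85-fold (log2 fold change 1.51 ± 0.044, adjusted p = 2.77e-26). Ly96, which encodes the MD-2 partner of TLR4, was at 4.89, 4.55 and 4.97 CPM in control and 5.81, 4.15 and 3.32 CPM in LPS, and the groups overlapped (adjusted p = 0.683). Of the 28 tested genes of the receptor and adaptor list, 15 rose and 2 fell, Tlr4 and the TAK1 partner Tab1. Calls covered 60.7% of this list, against 28.3% of all tested genes. Its median log2 fold change was 0.195, against -0.0084 for all genes.

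The signalling genes that rose most were kinases and adaptors downstream of the receptor. Traf1, an adaptor of TNF receptors, stood at 214, 225 and 221 CPM in LPS and 23.2, 23.3 and 24.5 CPM in control (log2 fold change 3.21 ± 0.065, adjusted p = 2.19e-31). Map3k8, the kinase TPL2 that feeds the ERK pathway, rose 4.16-fold, and the kinase gene Ikbke rose 3.79-fold. The adaptor Myd88 moved little (log2 fold change 0.202 ± 0.0403, adjusted p = 1.32e-04). Kinase genes of the opposite direction were Map3k14, the NF-kB inducing kinase NIK, at 10.9, 9.28 and 10.6 CPM in LPS and 18.5, 17.1 and 20.4 CPM in control (log2 fold change -0.86 ± 0.081, adjusted p = 3.82e-11), and Map3k1, at 49.1, 46.2 and 49.9 CPM in LPS and 103, 106 and 110 CPM in control (log2 fold change -1.13 ± 0.049, adjusted p = 6.74e-21). In both kinase genes the LPS libraries lay below all control libraries.

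Other pattern-recognition receptors split as well, with 9 of 26 tested higher and 3 lower (46.15% called, against 28.3% of all tested genes). Nlrp3, the sensor of the inflammasome, stood at 95.01, 99.7 and 92.5 CPM in control and 826, 800.1 and 840.3 CPM in LPS (log2 fold change 3.101 ± 0.041, adjusted p = 3.07e-37). Nod2, a sensor of bacterial wall fragments, rose 4.85-fold, Clec4e, the receptor Mincle, 4.23-fold, and Tlr2, which binds bacterial lipoproteins, 2.67-fold. The lower ones were also Toll-like receptors. Tlr5, the flagellin receptor, was at 5.597, 3.47 and 3.79 CPM in LPS and 8.19, 9.83 and 10.4 CPM in control (log2 fold change -1.16 ± 0.14, adjusted p = 1.42e-08), and Tlr13, which senses bacterial ribosomal RNA, at 91.1, 78.7 and 76.1 CPM in LPS and 136, 133 and 136 CPM in control (log2 fold change -0.72 ± 0.056, adjusted p = 2.66e-13). Tlr8 was called too, but its mean was below 1 CPM in both groups. With upper-quartile scaling 6 of the list were called lower instead of 3.

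Most NF-kB genes rose. Of 13 tested, 11 were higher, at a median log2 fold change of 1.004 (92.3% called, against 28.3% of all tested genes). The small decrease of Nkiras2 (-0.19) was lost without LPS replicate 1 or control replicate 3. The leader was Nfkbiz, a nuclear IkB protein that acts as a coactivator for secondary genes (ENSMUSG00000035356.17, chromosome 16, 55811375 to 55838899). It stood at 14.5, 16.98 and 16.2 CPM in control and 842, 838 and 853 CPM in LPS, a 52.8-fold rise (log2 fold change 5.72 ± 0.053, adjusted p = 3.95e-42). Among the DNA-binding subunits, Rel stood at 59.3, 67.7 and 67.8 CPM in control and 323, 291 and 297 CPM in LPS (log2 fold change 2.22 ± 0.052, adjusted p = 1.70e-29), while Rela, the subunit p65, rose only 1.57-fold (log2 fold change 0.65 ± 0.043, adjusted p = 2.72e-15). The inhibitor genes Nfkbid (1.61) and Nfkbia (2.696) rose on the same scale.

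Inhibitors of the response rose together with the activators. In the list of feedback and mRNA-decay genes 33 of 49 were higher and 5 lower (77.55% called, against 28.3% of all tested genes). The list's median log2 fold change was 0.699. Socs3, an inhibitor of cytokine receptor signalling, stood at 6.54, 5.62 and 7.21 CPM in control and 123, 136 and 139.5 CPM in LPS (log2 fold change 4.37 ± 0.084, adjusted p = 3.74e-32). The endonuclease gene Zc3h12a (Regnase-1), whose product cuts cytokine mRNAs, was at 88.5, 89.2 and 98.7 CPM in LPS and 5.17, 5.45 and 5.66 CPM in control (log2 fold change 4.08 ± 0.085, adjusted p = 6.01e-31), and the ubiquitin-editing inhibitor Tnfaip3 (A20) at 219.6, 209.5 and 218 CPM in LPS and 23.7, 23.6 and 23.3 CPM in control (log2 fold change 3.19 ± 0.056, adjusted p = 1.91e-33). All control libraries lay far below the LPS libraries in these 3 genes. Cish, a SOCS family member, rose 10.7-fold from about 1 CPM.

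A set of phosphatase and decay genes ran against that trend. Dusp6, a cytoplasmic phosphatase of ERK, was at 9.34, 9.74 and 11.6 CPM in control and 2.28, 2.83 and 1.68 CPM in LPS (log2 fold change -2.18 ± 0.14, adjusted p = 1.04e-15). Dusp7, its close relative, was at 60.99, 60.8 and 60.7 CPM in control and 21.2, 22.9 and 22.2 CPM in LPS (log2 fold change -1.46 ± 0.058, adjusted p = 4.89e-22). The 3 control libraries of Dusp7 were nearly equal, and all LPS libraries lay far below them. In the same list Dusp1, Dusp2, Dusp4, Dusp5, Dusp8, Dusp10 and Dusp16 were called higher, with log2 fold changes from 0.695 (Dusp10) to 2.57 (Dusp2). Those 7 were named after their values were seen. Zfp36l2, a protein that binds AU-rich elements in mRNA, was at 43.4, 45.3 and 46.9 CPM in LPS and 77.5, 83.4 and 83.9 CPM in control (log2 fold change -0.85 ± 0.055, adjusted p = 1.45e-15), while its relative Zfp36 rose (log2 fold change 2.19).

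Promoter sequence was compared between the sets as a description. RefSeq promoters (GRCm38.p6) matched 8853 of 11154 tested protein-coding genes by symbol, and 250 bases upstream of each start were searched on both strands. The NF-kB consensus in its degenerate form, with several positions open to more than 1 base, occurred in 8.799% of all these promoters, in 18.7% of 230 with at least 2-fold higher genes, in 23.6% of 89 with at least 4-fold higher genes and in 5.22% of 115 with at least 2-fold lower genes. The AP-1 motif TGANTCA was in 4.11%, 10.87%, 14.6% and 6.09% of the same sets. The TATA motif TATAAA did not separate the directions, at 6.03% of all promoters, 15.2% of the at least 2-fold higher and 14.8% of the at least 2-fold lower. Base composition differed as well: the median ratio of observed to expected CpG was 0.748 in all promoters. It was 0.532 in the at least 2-fold higher, 0.364 in the at least 4-fold higher and 0.572 in the at least 2-fold lower. The part of this in the motif shares was not tested. A match is only a run of letters in this window and does not show binding.

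The NF-kB consensus also matched upstream of lowered named genes, among them Ifit2, Elk3 and Fos, whose NF-kB matches are not shown. The stretches below are shown because they carry matches to these motifs in genes of the comparison: an NF-kB motif in raised genes, then TATAAA in genes of both directions. Each is 50 bases of GRCm38.p6 from RefSeq, 5′ to 3′ on the gene's strand, and capitals mark the motif. The raised genes are Cxcl2 (chr5:90903783-90903832, forward strand), Cxcl10 (chr5:92349019-92349068, reverse strand), Il6 (chr5:30013050-30013099, forward strand), Nfkbia (chr12:55492648-55492697, reverse strand) and Sod2 (chr17:13007736-13007785, forward strand).
Cxcl2: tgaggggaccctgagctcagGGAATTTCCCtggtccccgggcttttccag
Cxcl10: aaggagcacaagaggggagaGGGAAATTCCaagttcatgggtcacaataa
Il6: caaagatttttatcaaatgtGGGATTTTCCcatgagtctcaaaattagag
Nfkbia: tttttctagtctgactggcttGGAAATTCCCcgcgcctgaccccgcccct
Sod2: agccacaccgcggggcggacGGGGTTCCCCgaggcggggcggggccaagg
For TATAAA the raised genes are Tnf (chr17:35202009-35202058, reverse strand) and Il1a (chr2:129309977-129310026, reverse strand), and the lowered are Cxcr4 (chr1:128592302-128592351, reverse strand), Gadd45g (chr13:51846625-51846674, forward strand) and Fos (chr12:85473835-85473884, forward strand).
Tnf: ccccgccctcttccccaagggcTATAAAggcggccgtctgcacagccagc
Il1a: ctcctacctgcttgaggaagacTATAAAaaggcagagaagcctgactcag
Cxcr4: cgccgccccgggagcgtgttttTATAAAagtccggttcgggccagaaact
Gadd45g: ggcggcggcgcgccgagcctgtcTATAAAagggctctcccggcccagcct
Fos: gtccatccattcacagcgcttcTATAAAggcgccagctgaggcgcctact

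Immediate-early transcription factors of the AP-1, EGR and ATF list were 16 of 24 higher and 2 lower (75% called, against 28.3% of all tested genes). Myc (ENSMUSG00000022346.15, chromosome 15, 61985391 to 61990374), a factor of growth and metabolism, stood at 2.42, 2.34 and 2.35 CPM in control and 29.9, 31.1 and 31.2 CPM in LPS (log2 fold change 3.697 ± 0.14, adjusted p = 1.82e-22). Atf3, a stress factor that represses cytokine genes, stood at 97.6, 101 and 95.3 CPM in control and 403, 432 and 443 CPM in LPS (log2 fold change 2.12 ± 0.045, adjusted p = 9.61e-31), and the small MAF protein Maff rose 7.52-fold. Junb, an AP-1 subunit, stood at 98.5, 105 and 111 CPM in control and 358, 422 and 409.9 CPM in LPS (log2 fold change 1.92 ± 0.058, adjusted p = 7.89e-26). The founding AP-1 member did not follow: Fos was at 13.5, 13.96 and 10.8 CPM in control and 7.61, 8.301 and 8.98 CPM in LPS, lower in every LPS library (log2 fold change -0.62 ± 0.103, adjusted p = 8.44e-06). Elk3, an ETS factor with repressor activity, was also lower (log2 fold change -0.45 ± 0.077, adjusted p = 1.59e-05).

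In the list of macrophage and microglial lineage factors 15 of 27 were lowered and 8 raised, with a median log2 fold change of -0.205. The share called was 85.2%, against 28.3% of all tested genes, in a list chosen with earlier results of these data known. Bhlhe41, a basic helix-loop-helix repressor expressed in microglia and linked to the circadian clock (ENSMUSG00000030256.11, chromosome 6, 145858243 to 145865558), was at 55.9, 50.6 and 48.8 CPM in control and 10.3, 11.4 and 12.4 CPM in LPS. It stood at 21.9% of control (log2 fold change -2.18 ± 0.064, adjusted p = 2.60e-26), and no LPS library came near the lowest control library. Lyl1, a blood stem cell and microglial factor, was at 29.2, 31.3 and 29.7 CPM in LPS and 73.5, 76.7 and 78.9 CPM in control (log2 fold change -1.34 ± 0.05, adjusted p = 5.66e-23), and the homeobox factor Hhex at 14.2, 18.2 and 15.8 CPM in LPS and 36.5, 33.6 and 32.6 CPM in control (log2 fold change -1.08 ± 0.075, adjusted p = 1.14e-14). In these 3 genes the groups were well apart. The factor genes Tal1 (-0.67) and Maf (-0.59), chosen after their values were seen, were lower on the log2 scale too.

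Raised members of that list were C/EBP and MiT family genes. Cebpd, an inflammatory C/EBP factor, stood at 9.67, 10.04 and 10.9 CPM in control and 61.4, 76.03 and 72.1 CPM in LPS (log2 fold change 2.77 ± 0.101, adjusted p = 2.54e-23). Cebpb rose 2.14-fold and Tfec, a factor of the MiT family, 2.25-fold, while Cebpa fell (log2 fold change -1.03 ± 0.14, adjusted p = 2.72e-07) after a choice made with its value in view. The master macrophage factor Spi1 (PU.1) was at 292, 287 and 291 CPM in control and 354, 378 and 388 CPM in LPS (log2 fold change 0.36 ± 0.043, adjusted p = 1.06e-08), and Ikzf1, which encodes Ikaros, rose 1.56-fold. Irf8, another core factor of microglia, was at 56.98, 57.7 and 62.6 CPM in control and 57.1, 61.7 and 64.1 CPM in LPS, with overlapping groups (adjusted p = 0.548). The receptor Csf1r, a general macrophage marker, was at 484, 516 and 522 CPM in control and 533, 544 and 535 CPM in LPS (adjusted p = 0.0916). So the lowered factors stood beside core factors that were raised slightly or not called.

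**Figure D2:**
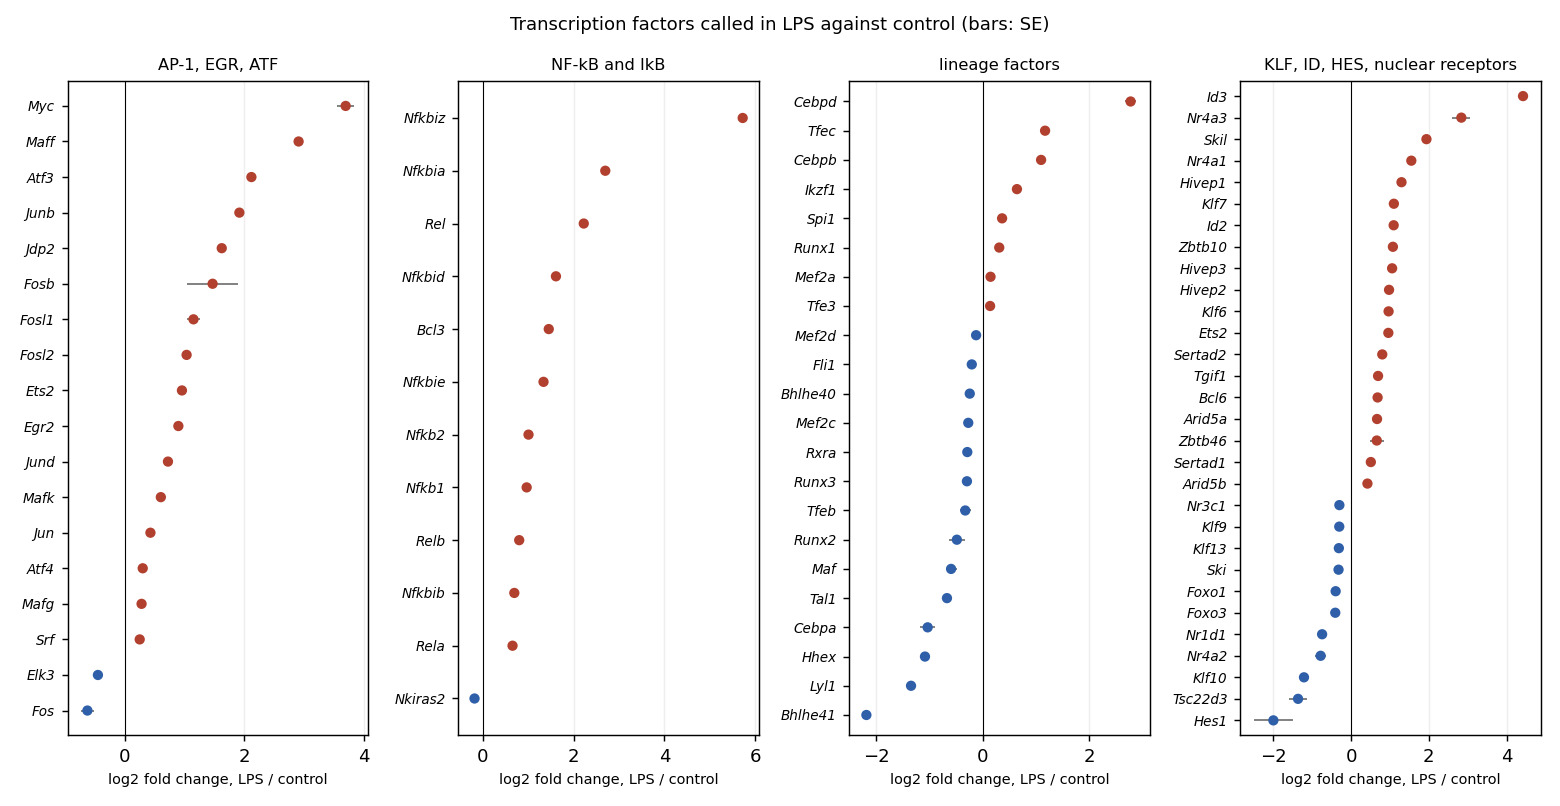
Log2 fold change of transcription factor genes called in LPS against control (points, red higher and blue lower, bars ± SE), in 4 lists. Nearly all NF-kB genes lie right of 0, most AP-1 genes do, and the lineage factors lie mostly left of it, from Bhlhe41 at -2.18 to Cebpd at 2.77.

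Inhibitors of differentiation, KLF factors and nuclear receptors moved both ways, 19 of 39 higher and 11 lower (76.9% called, against 28.3% of all tested genes). Id3, an inhibitor of basic helix-loop-helix factors (ENSMUSG00000007872.3, chromosome 4, 136143497 to 136145755), stood at 6.76, 5.36 and 5.66 CPM in control and 117, 125 and 137 CPM in LPS (log2 fold change 4.42 ± 0.098, adjusted p = 3.65e-30). Prdm1, the repressor BLIMP-1, outside that list, was at 0.494, 1.45 and 0.694 CPM in control and 26.5, 29.6 and 26.9 CPM in LPS (log2 fold change 4.9 ± 0.21, adjusted p = 5.47e-21). Its log2 fold change was 5.53 without control replicate 2. The orphan receptors of the NR4A family divided. Nr4a1 stood at 44.01, 39.6 and 45.1 CPM in control and 125, 119 and 132 CPM in LPS (log2 fold change 1.55 ± 0.082, adjusted p = 3.00e-18) and Nr4a3 rose 7.14-fold, whereas Nr4a2 was at 8.35, 9.23 and 11.4 CPM in control and 5.65, 4.88 and 6.31 CPM in LPS (log2 fold change -0.78 ± 0.14, adjusted p = 4.74e-05). Skil, a repressor of TGF-beta signalling, rose 3.83-fold. Klf10, an early gene of TGF-beta signalling, was at 20, 24.2 and 25.2 CPM in control and 11.3, 9.67 and 9.26 CPM in LPS (log2 fold change -1.21 ± 0.089, adjusted p = 6.53e-14), and the glucocorticoid-induced factor Tsc22d3 (GILZ) at 1.902, 1.42 and 1.22 CPM in LPS and 3.35, 4 and 4.17 CPM in control (log2 fold change -1.36 ± 0.22, adjusted p = 5.32e-06). Nr1d1, the clock repressor REV-ERB alpha, was at 4.02, 3.47 and 2.899 CPM in LPS and 6.54, 5.23 and 5.61 CPM in control (log2 fold change -0.74 ± 0.14, adjusted p = 3.54e-05).

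Among interferon regulatory and STAT factors only Irf1 changed more than 2-fold. It stood at 28.5, 31.96 and 31.7 CPM in control and 131, 134 and 148 CPM in LPS (log2 fold change 2.16 ± 0.054, adjusted p = 2.27e-28). Of 14 tested, 4 were higher and 4 lower (57.1% called, against 28.3% of all tested genes). Stat2, which carries the type I interferon signal, was at 9.01, 10.3 and 11.8 CPM in control and 5.38, 6.15 and 5.096 CPM in LPS (log2 fold change -0.904 ± 0.13, adjusted p = 3.94e-07), and Trim25, an interferon-linked ubiquitin ligase, at 113, 104 and 106 CPM in LPS and 169.7, 172 and 167 CPM in control (log2 fold change -0.66 ± 0.042, adjusted p = 1.32e-15). Without control replicate 3 only 2 of the 14 were called lower. Interferon-response genes were 13 of 29 higher and 5 lower (62.1% called, against 28.3% of all tested genes). The antiviral genes Rsad2, at 22.3, 26.9 and 29.8 CPM in LPS and 10.7, 8.68 and 6.89 CPM in control (log2 fold change 1.59 ± 0.12, adjusted p = 1.16e-13), and Isg15, at 8.97, 10.99 and 12.8 CPM in LPS and 2.802, 2.55 and 2.94 CPM in control (log2 fold change 1.99 ± 0.15, adjusted p = 2.68e-13), were among the higher. Other members, Ifit2 (log2 fold change -0.399 ± 0.11, adjusted p = 0.0054) and Usp18 (-0.346 ± 0.13, adjusted p = 0.0413), were called lower. Ifit2 lost its call without LPS replicate 3, and Usp18 in 6 of 13 alternative fits. The lower count of this list was 3 without LPS replicate 2 or 3 or control replicate 2 or 3, and in DESeq2.

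Chromatin regulators gave 9 of 31 higher and 8 lower (54.8% called, against 28.3% of all tested genes). Lower calls were 5 in every fit without 1 library except that without LPS replicate 1. Kdm6b, the histone H3 lysine demethylase JMJD3, stood at 33.6, 38.1 and 39.1 CPM in control and 157, 152 and 166 CPM in LPS (log2 fold change 2.098 ± 0.069, adjusted p = 9.25e-25). The elongation factor gene Ell2 rose 2.49-fold, the DNA demethylase gene Tet2 2.19-fold and Cited2, a CBP/p300 partner, 1.997-fold. Corepressor and other factor genes were lowered outside these lists, among them Irf2bp2, which binds IRF2, at 24.3, 21.7 and 20.3 CPM in LPS and 55.8, 58.3 and 56.98 CPM in control (log2 fold change -1.37 ± 0.0598, adjusted p = 7.83e-21), and Tfap4, a helix-loop-helix factor, at 6.36, 8.11 and 7.34 CPM in LPS and 17.9, 19.3 and 18.3 CPM in control (log2 fold change -1.34 ± 0.085, adjusted p = 7.84e-16).

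The 30 strongest decreases among genes with a mean of at least 5 CPM and no overlap between the groups ran from Cnr2 at -2.56 to Rab7b at -1.204 on the log2 scale. Cnr2, the cannabinoid receptor of immune cells, was at 17.8, 18.8 and 18.96 CPM in control and 3.15, 3.37 and 2.899 CPM in LPS (log2 fold change -2.56 ± 0.091, adjusted p = 1.21e-23). Rubcnl, which encodes an autophagy protein (Pacer), was at 9.18, 10.5 and 10.2 CPM in control and 2.28, 1.76 and 1.87 CPM in LPS (log2 fold change -2.35 ± 0.13, adjusted p = 8.85e-18). In both, all LPS libraries lay far below the control libraries. Groups that do not overlap were found in 38.3% of all tested genes, and here this was a condition of the choice. Next to the factors above, they held G protein-coupled receptors (Cnr2, Gpr183, Gpr146, Lpar5), signalling adaptors and regulators (Rgs2, Dusp6, Dusp7, Themis2, Rin2, Inka1), and metabolic regulators (Ppargc1b, Txnip, Osgin1). Ppargc1b, a coactivator of mitochondrial genes (PGC-1 beta), was at 17.4, 20.7 and 20.4 CPM in control and 6.79, 6.54 and 6.41 CPM in LPS (log2 fold change -1.57 ± 0.099, adjusted p = 7.18e-16). Themis2, an adaptor that acts in Toll-like receptor signalling of macrophages, was at 9.401, 8.59 and 10 CPM in LPS and 22.9, 23.8 and 23.5 CPM in control (log2 fold change -1.33 ± 0.077, adjusted p = 5.92e-17). Tifab, an inhibitor of TRAF6 signalling, was at 5.71, 6.35 and 5.05 CPM in LPS and 11.4, 12.8 and 15.3 CPM in control (log2 fold change -1.21 ± 0.12, adjusted p = 4.07e-10), and Rab7b, a late endosomal GTPase that limits TLR4 signalling, at 37.6, 35.8 and 33.2 CPM in LPS and 84.9, 79.1 and 81.5 CPM in control (log2 fold change -1.204 ± 0.049, adjusted p = 7.83e-22). Midn, encoding midnolin of the proteasome system, showed little spread, at 22.7, 23.6 and 24.7 CPM in control and 10.2, 10.1 and 10.1 CPM in LPS (log2 fold change -1.22 ± 0.086, adjusted p = 1.69e-14).

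**Figure D3:**
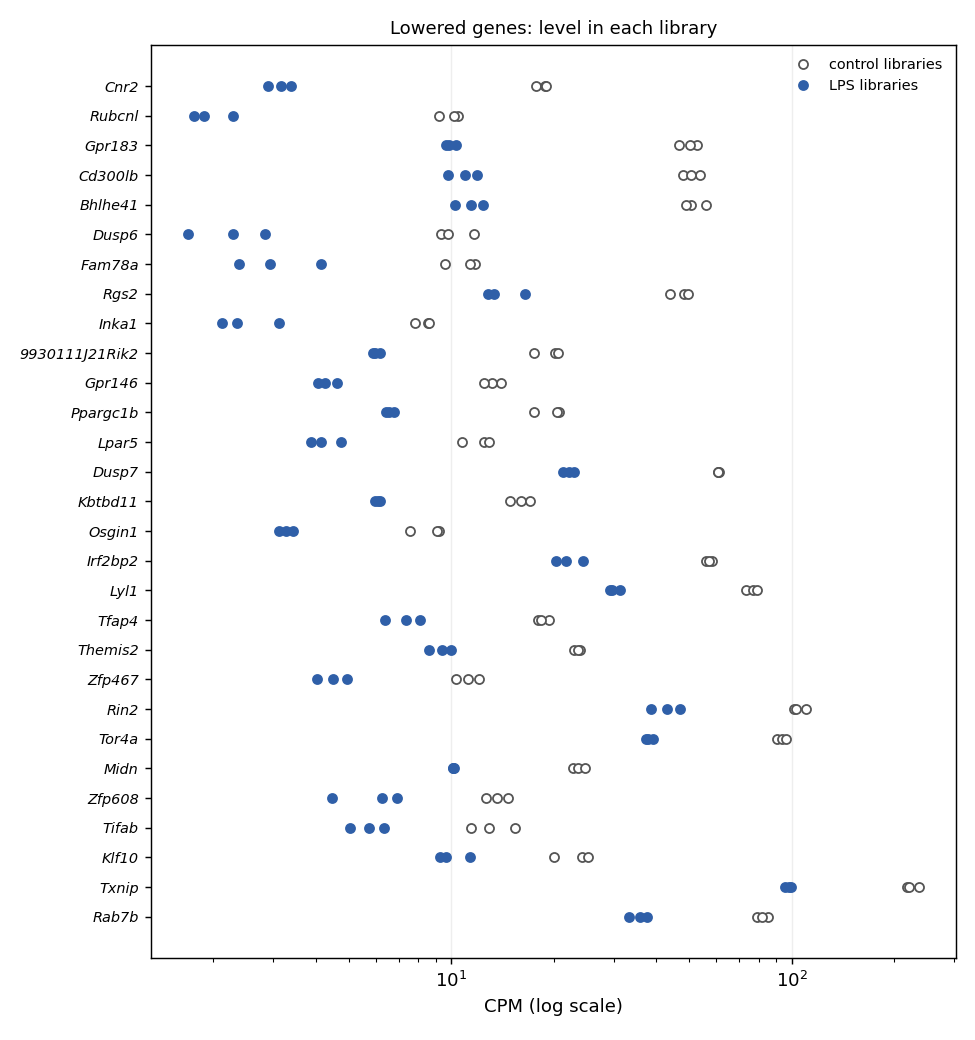
CPM (log scale) of 29 of the 30 most lowered genes in each of the 3 control libraries (open circles) and 3 LPS libraries (blue), ordered by fold change with the largest decrease at the top. The groups do not overlap in any of them, by the rule that chose them, and Txnip is the most abundant, at 218 to 236 CPM in control and 95.7 to 99.0 CPM in LPS.

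In the list of G protein-coupled receptors 22 of 48 tested were lower and 13 higher, with a median log2 fold change of -0.32. The share called was 72.9%, against 28.3% of all tested genes. List members were chosen with earlier results of these data known, so the lean describes the list and not the whole family. Gpr183 (EBI2), which guides cells along oxysterol gradients (ENSMUSG00000051212.8, chromosome 14, 121952551 to 121965195), was at 52.8, 46.6 and 50.1 CPM in control and 10.3, 9.86 and 9.63 CPM in LPS. It stood at 19.96% of control (log2 fold change -2.32 ± 0.066, adjusted p = 1.19e-26), with the groups far apart. Gpr146, at 4.62, 4.25 and 4.07 CPM in LPS and 13.96, 13.2 and 12.5 CPM in control (log2 fold change -1.62 ± 0.098, adjusted p = 2.02e-16), and Gpr157, at 1.195, 1.61 and 1.17 CPM in LPS and 5, 5.702 and 5.45 CPM in control (log2 fold change -2.02 ± 0.22, adjusted p = 1.08e-09), were lower in all LPS libraries. Cxcr4, the receptor of the chemokine CXCL12, was at 5.66, 4.47 and 5.39 CPM in control and 1.74, 1.37 and 1.78 CPM in LPS (log2 fold change -1.66 ± 0.17, adjusted p = 4.50e-10).

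Receptors for lysophospholipids were among the lowered. Lpar5, a receptor of lysophosphatidic acid, was at 12.5, 10.7 and 12.9 CPM in control and 4.73, 4.15 and 3.88 CPM in LPS (log2 fold change -1.497 ± 0.11, adjusted p = 8.52e-14). Lpar6 (log2 fold change -0.96 ± 0.12, adjusted p = 1.55e-08), S1pr1 (log2 fold change -1.19 ± 0.095, adjusted p = 4.17e-13) and S1pr2 (log2 fold change -0.98 ± 0.064, adjusted p = 1.84e-15), the last 2 receptors of sphingosine 1-phosphate, were lower as well. These 3 and the nucleotide receptors P2ry1 (log2 fold change -1.19) and P2ry6 (-0.68) were named after their values were seen.

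Raised receptors were for adenosine, complement, fatty acids and other inflammatory mediators. Adora2a, an adenosine receptor coupled to cyclic AMP, stood at 0.549, 0.383 and 0.694 CPM in control and 6.79, 7.96 and 7.29 CPM in LPS (log2 fold change 3.78 ± 0.26, adjusted p = 1.07e-14), and its relative Adora2b at 46.95, 51.6 and 49.6 CPM in LPS and 13.3, 14.8 and 14.5 CPM in control (log2 fold change 1.79 ± 0.0705, adjusted p = 3.08e-22). Gpr84, a receptor of medium-chain fatty acids, stood at 126, 128 and 124 CPM in control and 415, 451 and 453 CPM in LPS (log2 fold change 1.81 ± 0.053, adjusted p = 3.03e-26). Ccrl2, an atypical receptor that presents chemerin, rose 12.2-fold. Complement receptors C5ar1 (1.12) and C3ar1 (1.098), the platelet-activating factor receptor Ptafr (1.61) and the hydroxycarboxylic acid receptor Hcar2 (1.48) were also called higher on the log2 scale, and were picked with their values known. Ccr7 was called higher, but its mean was below 1 CPM in both groups.

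Regulators of these receptors changed in opposite directions within a family. Rgs2, which speeds the switch-off of Gq, was at 48.3, 49.4 and 43.8 CPM in control and 16.5, 12.8 and 13.3 CPM in LPS (log2 fold change -1.74 ± 0.072, adjusted p = 1.75e-21), while Rgs1 stood at 115, 123 and 114 CPM in LPS and 61.1, 54.3 and 55.2 CPM in control (log2 fold change 1.04 ± 0.076, adjusted p = 4.61e-14) and Rgs16, nearly absent in control with at most 5 counts per library, at 4.57, 4.05 and 5.75 CPM in LPS and 0.1099, 0.213 and 0.107 CPM in control (log2 fold change 4.96 ± 0.36, adjusted p = 2.84e-14). The largest decrease of any tested gene was that of Arrdc3, an alpha-arrestin that promotes receptor breakdown, at 5.05, 3.87 and 4.65 CPM in control and 0.598, 0.537 and 0.327 CPM in LPS (log2 fold change -3.21 ± 0.26, adjusted p = 7.24e-13). Its relative Arrdc4 was slightly higher (log2 fold change 0.31). Over the list of RGS, GRK and arrestin genes 7 of 27 were higher and 7 lower (51.85% called, against 28.3% of all tested genes).

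Receptors for cytokines and growth factors were 18 of 52 higher and 11 lower (55.8% called, against 28.3% of all tested genes). Cd40, the receptor of the T cell ligand CD154, stood at 13.7, 13.4 and 13.5 CPM in control and 89.7, 95.1 and 96.5 CPM in LPS (log2 fold change 2.79 ± 0.081, adjusted p = 1.80e-26). The receptors of TNF were unlike each other: Tnfrsf1b stood at 124, 124 and 121 CPM in control and 428, 417 and 446 CPM in LPS (log2 fold change 1.81 ± 0.041, adjusted p = 6.44e-30), and Tnfrsf1a at 109.6, 109 and 108 CPM in control and 79.99, 85.5 and 87.8 CPM in LPS (log2 fold change -0.37 ± 0.041, adjusted p = 2.31e-09). Il10ra, the receptor of the anti-inflammatory IL-10, rose 3.42-fold and Fas, a death receptor, 2.96-fold. Il6ra was at 71.8, 72.3 and 69.7 CPM in control and 45.3, 40.2 and 39.6 CPM in LPS (log2 fold change -0.78 ± 0.058, adjusted p = 1.01e-13), and Tnfrsf11a, the receptor RANK, at 24.9, 21.7 and 23.5 CPM in LPS and 36.8, 38.1 and 37.5 CPM in control (log2 fold change -0.69 ± 0.074, adjusted p = 1.08e-09). The TGF-beta receptors Tgfbr1 (-0.23) and Tgfbr2 (-0.304), named with their values known, were called lower by small amounts.

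**Figure D4:**
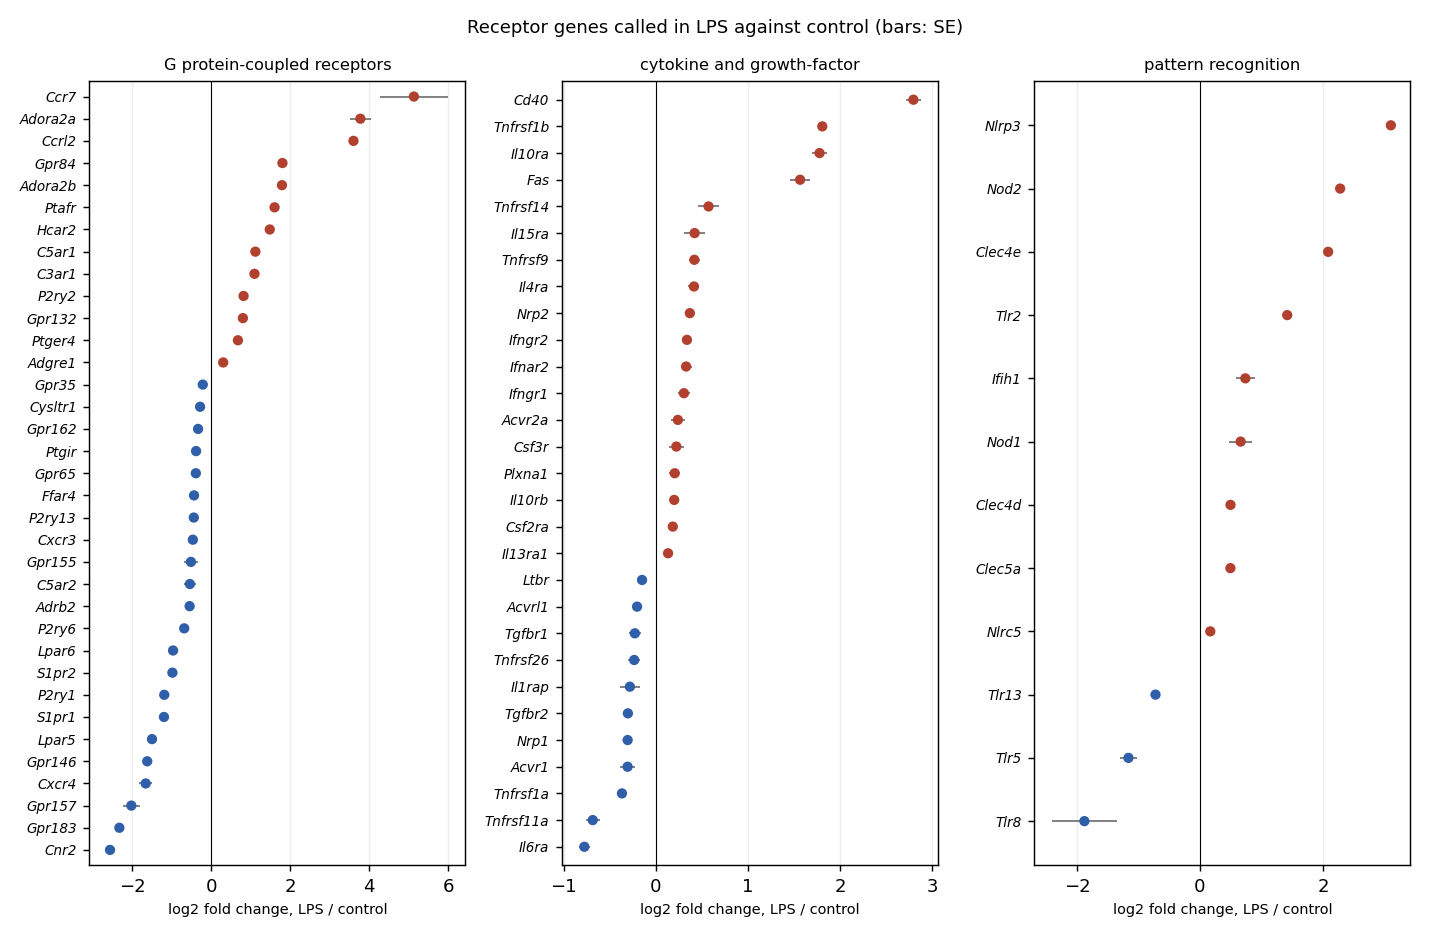
Log2 fold change of the receptor genes called in LPS against control (points, red higher and blue lower, bars ± SE), in 3 lists. G protein-coupled receptors spread to both sides, from Cnr2 at -2.56 to Ccr7 at 5.13, while decreases of cytokine receptors stay above -1.

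Phagocytic and scavenger receptors were 12 of 45 higher and 11 lower (51.1% called, against 28.3% of all tested genes). The decreases were small apart from 1. That was Cd300lb, an activating receptor of the CD300 family (ENSMUSG00000063193.8, chromosome 11, 114922781 to 114934386), at 53.6, 47.8 and 50.4 CPM in control and 11.8, 9.77 and 10.9 CPM in LPS (log2 fold change -2.22 ± 0.085, adjusted p = 1.24e-22). Trem1, which amplifies inflammatory signals, stood at 31.8, 31.7 and 35.3 CPM in LPS and 10.8, 9.11 and 8.81 CPM in control (log2 fold change 1.79 ± 0.1, adjusted p = 2.01e-17), whereas Trem2, a lipid-sensing receptor of microglia, was at 139, 154 and 151 CPM in LPS and 164, 163 and 176 CPM in control (log2 fold change -0.18 ± 0.043, adjusted p = 0.00141). The inhibitory receptor Lilrb4a rose 3.02-fold. Pilrb1 (1.87) and Pilrb2 (1.74) were higher on the log2 scale, but they are near-identical copies and how reads were divided between them is uncertain. The Fc receptor gene Fcgr1 was at 45.5, 51.6 and 50.1 CPM in LPS and 65.9, 68.3 and 64.7 CPM in control (log2 fold change -0.43 ± 0.053, adjusted p = 2.49e-08).

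In the list of costimulation, adhesion and antigen presentation genes 22 of 38 were higher (13.8% over all tested genes), 2 were lower and 14 were not called. Tnfsf9, the ligand of 4-1BB, stood at 18.9, 20.5 and 18.6 CPM in control and 136, 150.3 and 152 CPM in LPS (log2 fold change 2.91 ± 0.062, adjusted p = 1.09e-30), and Cd69, an early activation marker, at 20.4, 22.2 and 20.4 CPM in LPS and 0.989, 0.894 and 0.854 CPM in control (log2 fold change 4.52 ± 0.17, adjusted p = 6.80e-23). Vcam1, with at most 4 counts in any control library, stood at 2.28, 1.66 and 2.01 CPM in LPS and 0, 0.0426 and 0.214 CPM in control (log2 fold change 4.49 ± 0.55, adjusted p = 2.13e-08). Its fitted log2 fold change was 6.09 without control replicate 3, which held most of its control counts. Of the 2 lower genes, the small decrease of Itga6 (-0.22) lost its call without LPS replicate 2 or control replicate 2 or 3, which left 1.

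Of 29 tested identity genes of microglia, 2 rose and 5 fell, or 4 and 3 without control replicate 3. The share called, 24.1%, was near the 28.3% of all tested genes. Adgre1 (F4/80) stood at 198, 194 and 197 CPM in LPS and 159.7, 160.1 and 158 CPM in control (log2 fold change 0.31 ± 0.038, adjusted p = 3.04e-08). P2ry13 (log2 fold change -0.44 ± 0.13, adjusted p = 0.00982) lost its call without LPS replicate 3 or control replicate 3. Transcripts of the homeostatic markers were low in this line to begin with, since P2ry12 lay between 1.54 and 3.26 CPM and Tmem119 between 3.79 and 4.34 CPM in control.

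In the list of glycolysis genes and HIF-1 targets, sugar transporters rose most and regulators fell most. Of 46 tested, 9 were higher and 11 lower (7 lower without LPS replicate 2 or control replicate 3), with a median log2 fold change of -0.011. The share called was 43.5%, against 28.3% of all tested genes. Slc2a6, a hexose transporter of lysosomes, stood at 62.3, 66.5 and 66.4 CPM in control and 154, 165 and 164 CPM in LPS (log2 fold change 1.303 ± 0.049, adjusted p = 7.70e-23). Slc2a1, the glucose transporter GLUT1, stood at 208, 201 and 205 CPM in control and 325, 336 and 344 CPM in LPS (log2 fold change 0.71 ± 0.039, adjusted p = 9.52e-18). Among enzymes, Eno2, the neuronal form of enolase, stood at 19.8, 17.97 and 17.4 CPM in LPS and 12.4, 11.6 and 10.8 CPM in control (log2 fold change 0.67 ± 0.097, adjusted p = 7.39e-07). Hk2, hexokinase 2, was at 204, 198 and 196 CPM in LPS and 189, 187 and 188 CPM in control (adjusted p = 0.161), and Gapdh at 3152, 3435 and 3615 CPM in LPS and 3503, 3375 and 3311 CPM in control (log2 fold change 0.00 ± 0.043, adjusted p = 0.985). Pfkfb3, whose product sets the main allosteric activator of glycolysis, rose 1.27-fold (log2 fold change 0.35 ± 0.067, adjusted p = 7.88e-05), and Hif1a 1.22-fold (log2 fold change 0.28 ± 0.042, adjusted p = 1.00e-06).

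The largest decreases in this list were of regulators. Txnip, an alpha-arrestin that lowers glucose uptake (ENSMUSG00000038393.14, chromosome 3, 96557957 to 96561883), was at 218, 220.4 and 236 CPM in control and 99.01, 97.7 and 95.7 CPM in LPS. It stood at 43.3% of control (log2 fold change -1.21 ± 0.041, adjusted p = 2.07e-24). Pdp1, a phosphatase that activates pyruvate dehydrogenase, was at 4.13, 2.98 and 3.09 CPM in LPS and 5.88, 5.28 and 6.41 CPM in control (log2 fold change -0.79 ± 0.15, adjusted p = 8.62e-05). Ddit4 (REDD1), an inhibitor of mTORC1, was at 9.13, 10.9 and 11.8 CPM in LPS and 15.5, 14.8 and 18.3 CPM in control (log2 fold change -0.598 ± 0.12, adjusted p = 2.31e-04), and Ankrd37, a HIF-1 target, at 7.39, 9.96 and 10.3 CPM in LPS and 15.3, 14.8 and 14.04 CPM in control (log2 fold change -0.67 ± 0.11, adjusted p = 3.70e-06). In respiration, 34 of 36 complex I subunit genes were not called, so 5.56% were called, against 28.3% of all tested genes. None of the 11 tested genes encoded by mitochondrial DNA was called by edgeR or DESeq2, and 1 had an unadjusted p under 0.05.

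Among enzymes and transporters of amino acids, itaconate and NAD, 12 of 55 were higher and 9 lower (38.2% called, against 28.3% of all tested genes). Of the higher ones, 3 rose at least 2-fold. Nos2, inducible nitric oxide synthase (ENSMUSG00000020826.8, chromosome 11, 78920787 to 78960254), stood at 2.03, 1.36 and 1.76 CPM in control and 83.8, 98.2 and 108 CPM in LPS (log2 fold change 5.83 ± 0.16, adjusted p = 2.89e-27). Acod1, which makes itaconate from an intermediate of the citric acid cycle, stood at 97.5, 82.4 and 81.4 CPM in control and 999.7, 1058 and 1108 CPM in LPS (log2 fold change 3.601 ± 0.085, adjusted p = 2.66e-29). Slc7a11, the cystine importer xCT, stood at 30.2, 27.4 and 26.4 CPM in control and 146, 119 and 136 CPM in LPS (log2 fold change 2.26 ± 0.067, adjusted p = 3.77e-26). Gch1, which makes the cofactor of nitric oxide synthase, rose 1.95-fold. The decreases of the 9 lower genes were small, led by Bcat1 (-0.25), Idh1 (-0.23) and Glul (-0.198), the glutamine synthetase. Arg1, the arginase that competes with NOS2, was near 1 CPM, at 0.934, 0.553 and 0.481 CPM in control and 0.815, 0.586 and 1.22 CPM in LPS, and the groups overlapped (adjusted p = 0.575).

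Lipid genes moved in both directions, 23 of 78 higher and 19 lower (53.85% called, against 28.3% of all tested genes). Beside Ptgs2 (4.9), the prostaglandin synthase Ptges rose 3.46-fold from below 1 CPM. Sgms1, a sphingomyelin synthase, stood at 70.7, 65.6 and 68.8 CPM in LPS and 32.3, 32.1 and 31.7 CPM in control (log2 fold change 1.09 ± 0.054, adjusted p = 5.10e-19), and Hilpda, an inhibitor of lipid droplet breakdown, at 94.2, 98.4 and 104 CPM in LPS and 55.1, 50.1 and 53.8 CPM in control (log2 fold change 0.902 ± 0.066, adjusted p = 4.61e-14). Of the cholesterol exporters, Abcg1 was at 38.5, 44.2 and 39.8 CPM in control and 20.5, 21.3 and 25.1 CPM in LPS (log2 fold change -0.87 ± 0.071, adjusted p = 7.88e-13), while Abca1, named with its value known, rose (log2 fold change 0.74 ± 0.072, adjusted p = 8.28e-11). Scd2, a desaturase, was at 790.1, 806 and 801 CPM in control and 579.8, 522 and 512 CPM in LPS (log2 fold change -0.57 ± 0.0402, adjusted p = 1.69e-14), and Lpcat1, a lysophospholipid acyltransferase, at 52.2, 52.4 and 48.4 CPM in LPS and 68.7, 72.4 and 72.3 CPM in control (log2 fold change -0.48 ± 0.045, adjusted p = 3.98e-11).

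Iron and redox genes were 13 of 41 higher and 10 lower (56.1% called, against 28.3% of all tested genes). Slc11a2, the iron importer DMT1, stood at 110.4, 112 and 109 CPM in control and 253, 258 and 250.2 CPM in LPS (log2 fold change 1.199 ± 0.044, adjusted p = 4.88e-23), and the iron exporter ferroportin, Slc40a1, was at 47.9, 44.8 and 43.4 CPM in control and 37.01, 30.8 and 31.7 CPM in LPS (log2 fold change -0.45 ± 0.066, adjusted p = 7.20e-07). Lcn2, a siderophore-binding protein, rose 12.9-fold. Tfrc, the transferrin receptor, was at 572, 532 and 507 CPM in LPS and 520.1, 488 and 490.1 CPM in control, with overlapping groups (adjusted p = 0.0617). Nfe2l2 (NRF2), the master factor of antioxidant genes, stood at 194, 194 and 191 CPM in control and 386, 383 and 407 CPM in LPS (log2 fold change 1.02 ± 0.035, adjusted p = 3.71e-24), and mitochondrial superoxide dismutase Sod2 at 277, 301 and 312 CPM in LPS and 142, 129 and 134 CPM in control (log2 fold change 1.14 ± 0.048, adjusted p = 2.24e-21). Osgin1, an oxidative stress-induced growth inhibitor, was at 3.42, 3.12 and 3.27 CPM in LPS and 9.18, 7.53 and 9.08 CPM in control (log2 fold change -1.38 ± 0.15, adjusted p = 1.73e-09), and the zinc exporter Slc30a1 at 14.4, 13.1 and 14.03 CPM in LPS and 25.2, 23.8 and 23.6 CPM in control (log2 fold change -0.81 ± 0.0798, adjusted p = 1.49e-10). Several well-known NRF2 targets, Hmox1, Nqo1 and Gclm, were not called, and Gclc was lower (-0.38). Others, Slc7a11 and Sqstm1, were called higher, at 2.26 and 0.96, and all 6 were picked with their calls known.

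**Figure D5:**
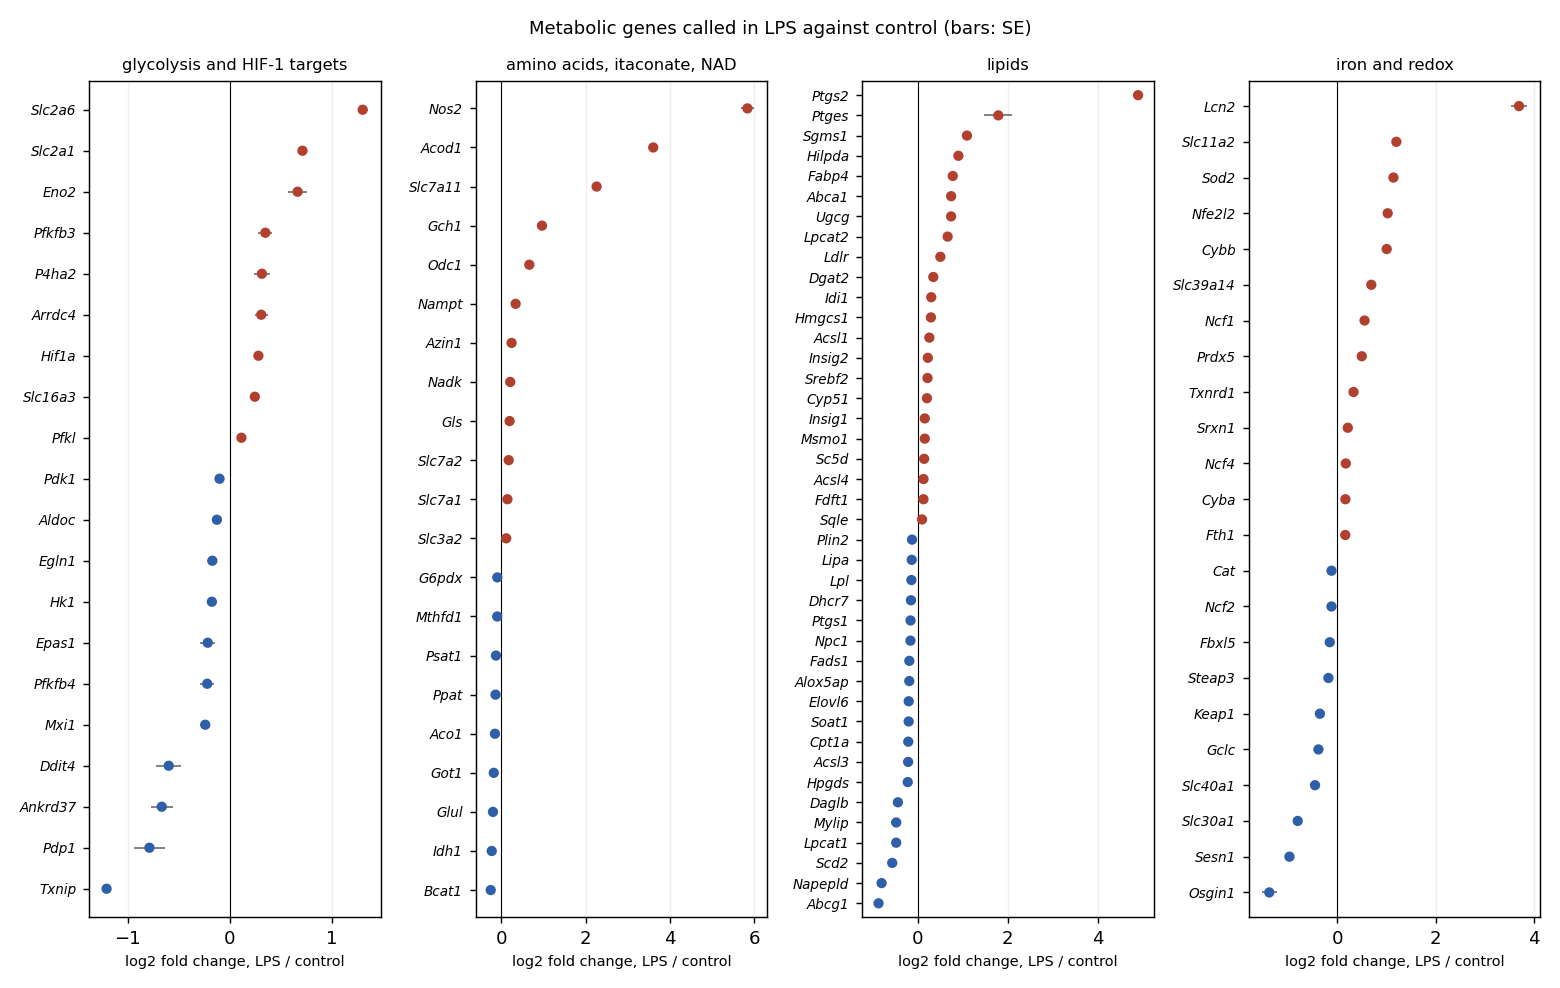
Log2 fold change of metabolic genes called in LPS against control (points, red higher and blue lower, bars ± SE), in 4 lists. In each list a few raised genes stand apart, such as Nos2 at 5.83, Ptgs2 at 4.9, Lcn2 at 3.69 and Slc2a6 at 1.303, and most others lie within 1 of 0.

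In a list of genes that promote survival or death, 30 of 53 were higher and 8 lower (71.7% called, against 28.3% of all tested genes). Their median log2 fold change, over all tested members, was 0.47. Pim1, a survival kinase, stood at 40.3, 36.3 and 37.7 CPM in control and 254, 263 and 274 CPM in LPS (log2 fold change 2.79 ± 0.052, adjusted p = 1.27e-32). Gadd45a, a stress and DNA damage gene, stood at 11.5, 12.8 and 10.8 CPM in LPS and 1.43, 1.06 and 1.18 CPM in control (log2 fold change 3.27 ± 0.18, adjusted p = 1.89e-17), while Gadd45g, from the same family, was at 0.706, 0.635 and 0.935 CPM in LPS and 3.02, 3.404 and 2.51 CPM in control (log2 fold change -1.97 ± 0.22, adjusted p = 2.83e-09). Bmf, a pro-apoptotic BH3-only gene, was at 2.01, 1.76 and 2.197 CPM in LPS and 3.901, 4.51 and 4.38 CPM in control (log2 fold change -1.102 ± 0.19, adjusted p = 1.72e-05), and the initiator caspase Casp9 at 34.9, 34.5 and 35.8 CPM in LPS and 53.7, 54.05 and 56.7 CPM in control (log2 fold change -0.64 ± 0.051, adjusted p = 3.27e-13). Bcl2a1a (3.59) and Bcl2a1d (3.14) were higher on the log2 scale, but the Bcl2a1 genes are near-identical copies and the division of reads between them is uncertain.

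In the list of cell-cycle genes the changes were small, with 15 of 44 lower and 3 higher, and none reached 2-fold. The share called was 40.9%, against 28.3% of all tested genes. Ccnd1, cyclin D1, was at 184, 189.6 and 182 CPM in control and 114, 119.6 and 116 CPM in LPS (log2 fold change -0.67 ± 0.042, adjusted p = 7.57e-16), and E2f2 at 32.5, 28.8 and 31.5 CPM in LPS and 45.1, 45.2 and 47.9 CPM in control (log2 fold change -0.58 ± 0.062, adjusted p = 1.36e-09). The lower count was 9 without control replicate 2 and 21 with upper-quartile scaling, where no gene of the list was higher. Without LPS replicate 1 the higher count was 1.

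Genes of autophagy and lysosome regulation gave 8 of 51 higher and 9 lower, so 33.3% were called, near the 28.3% of all tested genes. Sqstm1, the cargo receptor p62, stood at 534, 525 and 528 CPM in control and 999, 1014 and 1085 CPM in LPS (log2 fold change 0.96 ± 0.038, adjusted p = 4.24e-22). Fnip2, a partner of folliculin, was at 175, 176 and 177 CPM in control and 104, 95.1 and 99.3 CPM in LPS (log2 fold change -0.82 ± 0.047, adjusted p = 3.21e-17), and the stress-induced sestrin gene Sesn1 at 9.62, 10.5 and 9.07 CPM in LPS and 19.5, 19.8 and 18 CPM in control (log2 fold change -0.97 ± 0.083, adjusted p = 2.64e-12). With upper-quartile scaling 5 were higher and 13 lower.

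Among non-coding transcripts the host gene of miR-155, a microRNA that dampens inhibitors of inflammation, was the one raised most of those with a mean of at least 2 CPM. Mir155hg (ENSMUSG00000097418.7, chromosome 16, 84703167 to 84715245) stood at 2.97, 2.64 and 2.03 CPM in control and 33.8, 36.5 and 36.9 CPM in LPS (log2 fold change 3.81 ± 0.15, adjusted p = 7.57e-22). The mature miRNA was not measured in these poly-A libraries. Its sequence is shown because the host transcript carries it, from RefSeq (GRCm38.p6, chr16:84714143-84714165, forward strand, 5′ to 3′), and the capitals mark the seed, bases 2 to 8.
mmu-miR-155-5p: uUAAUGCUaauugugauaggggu
Among all tested lincRNAs 30 of 359 were higher and 25 lower, so 15.3% were called, against 28.3% of all tested genes. Ptgs2os, the antisense partner next to Ptgs2, rose 3.92-fold, and reads of the neighbour cannot be told apart from its own without a stated strand setting. The lowered non-coding genes with a mean of at least 2 CPM were smaller changes, such as 2610507I01Rik at 1.304, 1.904 and 1.73 CPM in LPS and 3.24, 3.58 and 3.95 CPM in control (log2 fold change -1.11 ± 0.202, adjusted p = 3.42e-05).

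The 30 most lowered genes were also looked at in the other 6 groups, and in none of these groups did the mean of any of the 30 genes fall to the mean in LPS. The 30 were chosen for their decrease in LPS, so that LPS was the lowest group was largely set by the choice. In (GT)6 SWCNT, a nanotube wrapped in DNA, 25 of the 30 had a mean below that of control and 5 above it, with a median of 65.3% of control. In COOH SWCNT 24 were below control, with a median of 84.2%. The dye DiBASC2 went the other way: 28 of the 30 were above control and 2 below, with a median of 112.9%. The remaining groups were more evenly split. AAV had 13 genes below control (median 102.1%), Fura-2 had 12 (101%) and Di-2-ANEPEQ had 16 (99.1%). Cnr2 averaged 18.5 ± 0.659 CPM in control (SD, n = 3), 3.14 ± 0.236 in LPS, and 10.6 ± 0.284 in (GT)6 SWCNT, 14.7 ± 0.662 in COOH SWCNT, 18.1 ± 0.193 in Fura-2, 22.1 ± 1.04 in DiBASC2, 18.9 ± 0.312 in Di-2-ANEPEQ and 19.4 ± 0.688 in AAV. Bhlhe41 averaged 51.8 ± 3.74 CPM in control, 11.3 ± 1.06 in LPS, and 31.6 ± 0.496 in (GT)6 SWCNT, 43.6 ± 0.684 in COOH SWCNT, 53.7 ± 1.33 in Fura-2, 64.03 ± 2.75 in DiBASC2, 56.7 ± 1.22 in Di-2-ANEPEQ and 58.9 ± 1.23 in AAV. Both had means in (GT)6 SWCNT between those of control and LPS, as 25 of the 30 did. Gpr183 was 1 of the 5 above control in (GT)6 SWCNT. It averaged 49.8 ± 3.11 CPM in control and 9.94 ± 0.353 in LPS, with 66.2 ± 3.44 in (GT)6 SWCNT, 66.5 ± 1.74 in COOH SWCNT, 50.2 ± 1.18 in Fura-2, 49.4 ± 2.005 in DiBASC2, 43.4 ± 1.16 in Di-2-ANEPEQ and 49.4 ± 2.19 in AAV. The direct comparison of LPS with (GT)6 SWCNT gave a log2 difference -2.74 ± 0.064, adjusted p = 4.75e-29 (21.6% of all tested genes were called in that comparison). Rgs2 was also lowest in LPS and above control in (GT)6 SWCNT, at 47.2 ± 2.95 in control, 14.2 ± 1.97 in LPS and 57.05 ± 1.94 in (GT)6 SWCNT, 52.9 ± 4.43 in COOH SWCNT, 40.1 ± 1.54 in Fura-2, 56.4 ± 0.0308 in DiBASC2, 38.7 ± 1.09 in Di-2-ANEPEQ and 44.1 ± 1.498 in AAV.

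Bmf was a lowered gene whose lowest level was outside LPS. It averaged 4.26 ± 0.321 CPM in control, 1.99 ± 0.221 in LPS, and 0.988 ± 0.237 in (GT)6 SWCNT, 1.97 ± 0.156 in COOH SWCNT, 4.07 ± 0.404 in Fura-2, 7.29 ± 0.364 in DiBASC2, 4.49 ± 1.23 in Di-2-ANEPEQ and 3.94 ± 0.591 in AAV. LPS was above (GT)6 SWCNT for this gene (log2 difference 1.004 ± 0.25, adjusted p = 0.00272). Among raised genes, Nos2 averaged 96.7 ± 12.1 CPM in LPS and 1.72 ± 0.338 in control, with 1.95 ± 0.681 in (GT)6 SWCNT, 2.58 ± 0.466 in COOH SWCNT, 1.803 ± 0.639 in Fura-2, 1.65 ± 0.448 in DiBASC2, 2.12 ± 0.179 in Di-2-ANEPEQ and 2.54 ± 0.811 in AAV, so all 7 other groups stayed below 3 CPM on average. Gdf15, a stress cytokine, averaged 85.1 ± 12.8 in LPS, 3.99 ± 0.549 in control, and 30.9 ± 4.74 in (GT)6 SWCNT, 11.4 ± 0.511 in COOH SWCNT, 3.93 ± 0.684 in Fura-2, 2.14 ± 0.345 in DiBASC2, 4.76 ± 0.932 in Di-2-ANEPEQ and 4.55 ± 0.283 in AAV. The comparisons with control share the same 3 control libraries, so these levels are side by side and no test of their likeness was made.

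Some values are uncertain because exons of the gene overlap those of another annotated gene and no strand setting is stated. Of the genes that the naming rule chose, these are Adamts4, Ankrd37, Bcat1, Bhlhe41, Casp9, Ccnd1, Cebpb, Cebpd, Cish, Csf1r, Cxcl10, Edn1, Elk3, Ell2, Gadd45a, Gapdh, Glul, Gpr84, Hif1a, Ikbke, Il1a, Il1b, Il6ra, Irf1, Irf2bp2, Junb, Kdm6b, Lilrb4a, Lyl1, Map3k14, Mir155hg, Myd88, Nkiras2, Nr1d1, P2rx7, Pilrb1, Pilrb2, Pim1, Rgs16, Rora, Scd2, Sgms1, Slc11a2, Slc15a3, Slc2a1, Slc30a1, Sqstm1, Tef, Tet2, Tnfsf9, Txnip, Vcam1 and Zfp36l2.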

How the data were processed

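The authors deposited raw counts for each gene in 1 table, whose columns were matched to samples by name. Reads were aligned with STAR 2.5.4b to GRCm38.p6, per the submitters' processing notes. The counting tool, annotation release and strand setting are not given in the sources used here. Symbols and positions come from GENCODE M21 (GRCm38), which matched 54809 of 54838 identifiers without their version. In R 4.3.3, edgeR 4.0.16 kept genes with filterByExpr, scaled libraries with TMM factors and fitted 1 quasi-likelihood model with a mean per group to all 24 libraries (16 residual degrees of freedom, biological coefficient of variation 4.12%). Contrasts were LPS against control, (GT)6 SWCNT and COOH SWCNT, tested two-sided with Benjamini-Hochberg adjustment over 13116 genes. The method was tested on simulated data. A group was at the floor for a gene with no library above 3 counts.

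The 28 lists (1029 genes tested) and the members were chosen with earlier results of these data known. Named genes were the 15 highest and 30 lowest log2 fold changes among called genes with a mean of at least 5 CPM and no overlap of the groups, up to 4 called members per list and direction with at least 1 CPM, the 6 highest and 6 lowest non-coding genes with at least 2 CPM, and 15 genes whatever their values. Others are said to be chosen with values known. Some genes that the rule names are not reported here. Alternatives were DESeq2 size factors, the DESeq2 1.42.0 test, upper-quartile factors, a fit of the 6 libraries, no filter, a minimum mean of 50 counts, a block for the replicate number, and leaving out each library.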

Additional observations from a re-analysis of the deposited data

How the results depend on the processing

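No called gene that the rule names changed direction in the 13 alternatives, but the balance of calls did, from more lower calls to more higher calls in most of them. The count of called genes was 3717, and 3504 to 4115 under the alternatives that keep all 24 libraries. It was 3409 in the fit of the 6 libraries alone. Leaving out 1 library gave 3104 (without control replicate 2) to 3580 (without LPS replicate 1), with 1645 to 1914 higher and 1459 to 1666 lower. With a mean of at least 50 counts, 10342 genes were tested, and 225 were at least 2-fold higher and 95 at least 2-fold lower, against 369 and 183, since fewer low genes were tested. Of the 183, all 97 that were tested there stayed called lower, and of the 369, all 223 stayed called higher. Calls made with upper-quartile factors were higher in 35.4% of cases, against 48.7% with TMM, and the median log2 fold change of all genes moved by -0.042. Of single named genes, 52 of their values under an alternative lost the call, and 9 gained it. The replicate numbers are only names: same-numbered libraries deviated together at r = -0.080, 0.025 and -0.028, and with the number as a replicate block 3683 genes were called. Depth limits genes below about 1 CPM, where 1 count is 0.0503 CPM in control.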

Other observations

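Zinc-finger genes, many of which encode repressors of the KRAB type, held more lower than higher calls. Of 313 tested genes with a symbol starting Zfp, 87 were called lower and 40 higher, at a median log2 fold change of -0.13, while 14.5% of all tested genes were lower and 13.8% higher. Lower calls outnumbered higher calls in all 13 alternatives. At least 2-fold lower were 15 (1.4% over all genes), and at least 2-fold higher were 4 (2.81%). Zfp467 was at 10.3, 11.2 and 12.02 CPM in control and 4.02, 4.93 and 4.49 CPM in LPS (log2 fold change -1.31 ± 0.12, adjusted p = 5.14e-11), and Zfp839, chosen after its value was seen, averaged 19.6 ± 1.37 CPM in control and 9.23 ± 1.82 CPM in LPS (SD, n = 3). The 4 at least 2-fold higher were Zfp36, Zfp263, Zfp703 and Zfp811, of which Zfp36 is an mRNA-decay factor, and Zfp811 had no count in any control library.

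Polycomb genes moved in both directions, in examples chosen after their values were seen. Cbx8 averaged 6.42 ± 1.25 CPM in control and 1.68 ± 0.115 CPM in LPS (log2 fold change -1.93 ± 0.17, adjusted p = 1.32e-11) and Cbx2 11.1 ± 1.06 CPM in control and 5.24 ± 0.548 CPM in LPS (log2 fold change -1.099 ± 0.11, adjusted p = 4.13e-10). Cbx7, on chromosome 15, averaged 26.4 ± 1.37 CPM in control and 36.6 ± 2.33 CPM in LPS and was higher (log2 fold change 0.48 ± 0.061, adjusted p = 5.25e-08). Along the chromosomes, 6 runs of 3 neighbouring protein-coding genes were each at least 2-fold higher, among them the Ccl2, Ccl7 and Ccl12 genes and those of Ltb, Tnf and Lta. The runs of Pilra, Pilrb1 and Pilrb2 and of Bcl2a1d, Bcl2a1a and Bcl2a1b, also counted, hold near-identical copies whose reads are not surely divided. Whether such runs exceed those of randomly placed genes was not tested.

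Genes of the coagulation and matrix systems were 18 of 39 tested higher and 4 lower (2 without LPS replicate 1 or 2 or control replicate 1 or 2). Calls covered 56.4% of this list, against 28.3% of all tested genes. F3, tissue factor, which starts coagulation, stood at 7.499, 7.37 and 6.45 CPM in LPS and 1.43, 1.11 and 1.01 CPM in control (log2 fold change 2.59 ± 0.2, adjusted p = 2.21e-13), and Adamts4, an aggrecanase, at 23.04, 22.4 and 20.2 CPM in LPS and 1.37, 1.66 and 1.92 CPM in control (log2 fold change 3.72 ± 0.16, adjusted p = 2.73e-21). Edn1, encoding endothelin 1, with at most 9 counts in any control library, stood at 2.93, 3.37 and 3.37 CPM in LPS and 0.3297, 0.383 and 0.374 CPM in control (log2 fold change 3.13 ± 0.31, adjusted p = 1.62e-10).

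Transporters and channels moved evenly, 10 of 41 higher and 13 lower (56.1% called, against 28.3% of all tested genes). The copper transporter Slc31a2 stood at 52.7, 54.7 and 55.5 CPM in LPS and 24.5, 23.5 and 24.6 CPM in control (log2 fold change 1.17 ± 0.059, adjusted p = 1.03e-18), the lysosomal peptide transporter Slc15a3 at 342, 379 and 356 CPM in LPS and 200, 190 and 191 CPM in control (log2 fold change 0.89 ± 0.047, adjusted p = 2.80e-18), and the nucleoside transporter Slc29a3 at 19.6, 17.6 and 16.3 CPM in LPS and 30, 30.8 and 32.6 CPM in control (log2 fold change -0.81 ± 0.082, adjusted p = 2.48e-10). P2rx7, the ATP-gated channel, was at 58.96, 59.1 and 58.8 CPM in control and 42.8, 38.9 and 37.5 CPM in LPS, lower in all LPS libraries (log2 fold change -0.57 ± 0.054, adjusted p = 4.59e-11). Clock genes were 3 of 17 higher and 5 lower (47.06% called, against 28.3% of all tested genes). Tef was at 27.6, 28.6 and 31.8 CPM in LPS and 38.4, 40.4 and 44.6 CPM in control (log2 fold change -0.49 ± 0.067, adjusted p = 2.55e-07), and Rora at 4.67, 5.13 and 6.64 CPM in LPS and 2.42, 3.53 and 2.24 CPM in control (log2 fold change 0.98 ± 0.19, adjusted p = 6.78e-05). Cytoskeletal regulators were among the raised, such as Cdc42ep2 at 18.9, 23.7 and 21.3 CPM in LPS and 1.81, 2.04 and 2.08 CPM in control (log2 fold change 3.42 ± 0.16, adjusted p = 1.93e-19) and Marcks at 81.7, 91.3 and 94.3 CPM in LPS and 24.9, 23.6 and 30.4 CPM in control (log2 fold change 1.77 ± 0.074, adjusted p = 2.66e-21). Their list, of signalling and cytoskeletal regulators, had 23 of 61 higher and 16 lower (63.9% called, against 28.3% of all tested genes).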
